A study of Mus musculus with 18 samples.

Results

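Kidneys of HS mice that had also received a faecal microbiota transfer (FMT) were compared with kidneys of HS mice that had not. HS stands in the labels for a high fat diet plus STZ. STZ is the usual abbreviation of streptozotocin, a toxin of the insulin-producing beta cells used to make rodents diabetic. The comparison took the mean of the 2 transfer groups minus HS, so that it weighs what the transfers had in common. It used 9 of the 18 RNA-seq libraries of the series: 3 HS_AOS_FMT libraries, 3 HS_control_FMT libraries and 3 HS libraries, chosen by their labelled treatment. All 9 came from kidneys of ICR mice labelled as 10 weeks old, and all 3 groups carry high fat diet and STZ. HS_AOS_FMT is labelled with AOS at 10 mg/kg and FMT, and HS_control_FMT with control FMT. The labels spell out neither AOS nor who the donors were, and they do not say whether AOS was given to donor or recipient. No HS group with a sham transfer was used here, so the transfer procedure and the transferred microbiota cannot be told apart. The labels do not say which libraries came from separate mice, and p-values here measure only the spread between the libraries.

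The level of each gene is given in FPKM, fragments scaled to transcript length and to the mapped total, so levels of different genes can be set side by side. Of the 19545 genes of the table, 12071 were tested, those with 1 FPKM or more in 3 or more of the 9 libraries; 7474 were not. Changes are differences of log2(FPKM + 1), a scale that understates the change of low genes, and adjusted p-values are those of limma with Benjamini-Hochberg adjustment over the 12071 genes. A gene is called where its adjusted p is under 0.05. Between 11156 and 12010 genes reached 1 FPKM in each of the 9 libraries, and log2 profiles of library pairs correlated at 0.974 to 0.991 across genes. The number of reads behind each value is unknown, since the table holds no counts.

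The tissue markers matched the labelled kidney. Slc34a1, the phosphate transporter of the proximal tubule, lay between 2104 and 2939 FPKM, and Umod, made by the thick ascending limb, between 370.0 and 1023 FPKM. Adrenal RNA was uneven. Cyp11b1, the last enzyme of glucocorticoid synthesis in the adrenal cortex, was at 38.2 FPKM in HS_AOS_FMT 2, at 6.11 FPKM in HS_AOS_FMT 3 and at 38.3 FPKM in HS 3, and at or under 0.59 FPKM in the other 6 libraries. In whole tissue, fewer cells of a type and less RNA per cell cannot be told apart.

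A transfer of a gut community can change the bile acids, short-chain fatty acids and other microbial products that reach the kidney through the blood. The mammalian clock, on which much of the result turns, is a feedback loop. BMAL1 (gene Arntl) pairs with CLOCK or NPAS2 and binds E-boxes to switch on the Per and Cry genes, Nr1d1, Nr1d2, Ciart, Dbp and Tef. PER, CRY and CIART proteins then repress BMAL1, the REV-ERB receptors NR1D1 and NR1D2 silence Arntl, and RORA activates it. DBP, TEF and HLF carry the rhythm onwards by binding D-boxes, where NFIL3 opposes them. In kidney, as in liver, the E-box genes and Arntl peak at opposite times of day, and the labels give no time of day for the collection of these kidneys.

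Promoters of 3 clock genes that were higher in the transfers are shown because they hold the letters of an E-box or a D-box. Each is the RefSeq sequence (GRCm38.p6) of 250 bases before to 50 bases after an annotated start, written 5′ to 3′ on the gene's strand, with CACGTG (E-box) or TTATGTAA (D-box, searched on both strands) in capitals.
Ciart, chr3:95882179-95882478, minus strand: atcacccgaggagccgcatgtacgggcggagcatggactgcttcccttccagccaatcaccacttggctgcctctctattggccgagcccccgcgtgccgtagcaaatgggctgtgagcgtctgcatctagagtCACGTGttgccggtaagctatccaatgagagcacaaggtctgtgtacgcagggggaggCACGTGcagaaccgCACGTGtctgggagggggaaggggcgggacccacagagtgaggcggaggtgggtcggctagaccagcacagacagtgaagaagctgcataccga
Per3, chr4:151044616-151044915, minus strand: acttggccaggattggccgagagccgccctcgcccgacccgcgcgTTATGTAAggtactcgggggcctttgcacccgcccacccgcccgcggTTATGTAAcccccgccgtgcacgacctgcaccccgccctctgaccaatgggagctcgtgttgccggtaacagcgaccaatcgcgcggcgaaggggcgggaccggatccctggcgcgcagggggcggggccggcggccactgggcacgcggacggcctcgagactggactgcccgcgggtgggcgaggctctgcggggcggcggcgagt
Tef, chr15:81802423-81802722, plus strand: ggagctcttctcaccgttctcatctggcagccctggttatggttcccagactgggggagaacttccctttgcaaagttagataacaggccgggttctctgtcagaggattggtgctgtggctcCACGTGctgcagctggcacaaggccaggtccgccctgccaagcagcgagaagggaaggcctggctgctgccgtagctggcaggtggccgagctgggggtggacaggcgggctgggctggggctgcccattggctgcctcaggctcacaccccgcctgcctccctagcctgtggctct
Tef, second start, chr15:81811164-81811463, plus strand: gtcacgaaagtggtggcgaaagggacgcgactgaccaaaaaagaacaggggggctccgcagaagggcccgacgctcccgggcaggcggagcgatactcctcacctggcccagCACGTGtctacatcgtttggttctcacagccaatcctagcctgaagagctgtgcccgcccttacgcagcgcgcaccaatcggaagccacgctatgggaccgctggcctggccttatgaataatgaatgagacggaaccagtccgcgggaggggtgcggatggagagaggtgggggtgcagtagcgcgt
The 3 E-boxes of Ciart began 116, 58 and 44 bases before its start, and the 2 D-boxes of Per3 began 205 and 158 bases before its start. The E-boxes of the Tef promoters began 127 and 138 bases before their starts.

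In the kidneys with a transfer, 66 of the 12071 genes were called against HS, 35 higher and 31 lower, which is 0.547% of the genes tested (0.29% higher and 0.257% lower). Genes of the circadian clock made up 9 of the 35 raised genes, Dbp, Ciart, Per2, Per3 and Nr1d2 among the 6 with the largest changes by the naming rule. The lowered genes had smaller changes, from -0.31 to -0.89 on the log2 scale, and came from several functions, among them subunits of mitochondrial complex I, RNA-binding proteins and the calcium buffer Calb1. An unadjusted p under 0.05 was found for 2470 genes (20.5%), of which 910 were higher (7.54%) and 1560 lower (12.9%), and the median log2 change over all genes tested was -0.04. The 6 transfer libraries lay entirely on 1 side of the 3 HS libraries for 62 of the 66 called genes, 32 above and 30 below. Over all genes tested, the groups did not overlap for 1089 genes (9.02%), 400 above (3.31%) and 689 below (5.71%). Since a gene whose groups are apart passes more readily, nothing is read from the share among the called genes.

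All 66 genes had the same sign in each transfer taken alone. They were chosen by the mean of these same changes, which share the HS libraries, so nothing is read from that. Set against HS separately, with the same 3 HS libraries in each, HS_AOS_FMT had 366 called genes (3.03%), 151 higher (1.25%) and 215 lower (1.78%). HS_control_FMT had 111 called genes (0.92%), 67 higher (0.555%) and 44 lower (0.365%). Called in each with the same sign were 27 genes (0.224% of those tested), 19 higher and 8 lower, and all 27 were among the 66. A further 27 of the 66 were called in HS_AOS_FMT and not in HS_control_FMT, and 12 in HS_control_FMT and not in HS_AOS_FMT. The transfers also differed from each other: HS_AOS_FMT minus HS_control_FMT called 509 genes (4.22%), 369 higher (3.06%) and 140 lower (1.16%). Of the 66 genes called in the mean of the transfers, 15 were among these 509 and 51 were not.

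**Figure D1:**
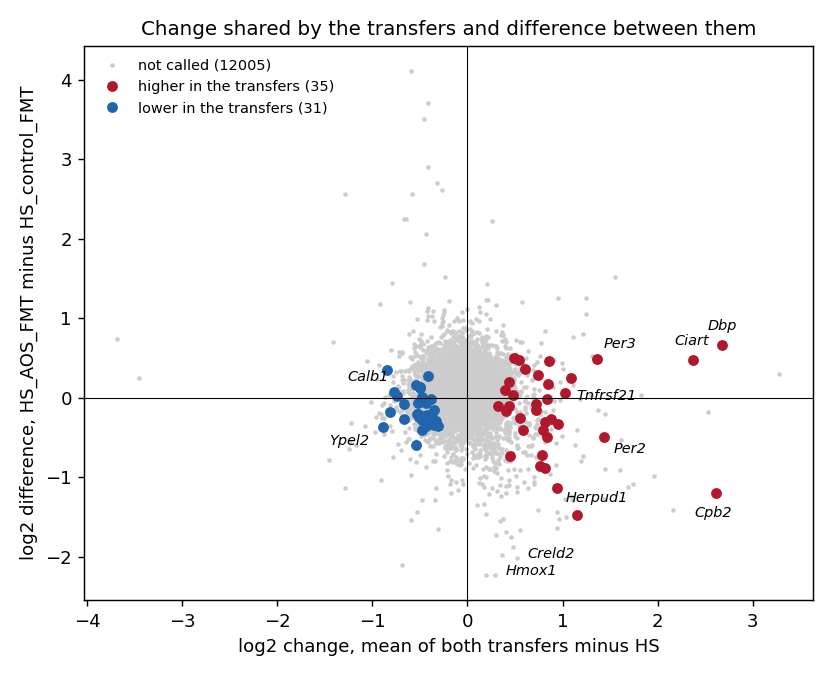
Each point is 1 of the 12071 genes tested; the x axis is the log2 change of the mean of both transfers minus HS and the y axis the log2 difference of HS_AOS_FMT minus HS_control_FMT, both of FPKM + 1. The 35 genes called higher (red) reach 2.68 at Dbp, the 31 called lower (blue) reach -0.89 at Ypel2, and Hmox1 and Creld2 (grey, labelled) lie at -2.23 and -2.02 on the y axis.

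The count of called genes depended on single libraries, mostly through the lowered genes. It was 72, 17 and 15 without HS_AOS_FMT 1, 2 and 3, it was 21, 50 and 61 without HS_control_FMT 1, 2 and 3. Without HS 1, 2 and 3 it was 25, 21 and 16. Of the 35 raised genes, 26, 14 and 14 were called in the same order without an HS_AOS_FMT library, 16, 24 and 27 without an HS_control_FMT library and 15, 16 and 13 without an HS library. Called in all 9 of these fits were 12 genes: Dbp, Ciart, Per3, Nr1d2, Tef, Usp2, Cpb2, Coq10b, Dnajb9, Mtss1 and Tnfrsf21, which were higher, and Bcl7c, which was lower. Without HS_AOS_FMT 2 and HS 3 together, which hold the most adrenal RNA, limma called 0 genes and 1462 had an unadjusted p under 0.05. There all 66 genes kept their sign and an unadjusted p under 0.05, with log2 changes of 0.9 to 1.16 times those from all 9 libraries. The 66 genes had been chosen by a fit that held these same libraries, so nothing is read from their agreement.

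On the log2(FPKM + 1) scale the largest increase was that of Dbp, an output gene of the clock, followed by Cpb2 (2.61) and Ciart. That scale understates the change of low genes, and Cpb2 and Ciart had lower levels than Dbp, so the order depends on it. Dbp, a D-box activator driven by BMAL1 (chromosome 7, 45705100 to 45710203, RefSeq, GRCm38.p6, as for all positions here), was at 123, 85.5 and 65.3 FPKM in HS_AOS_FMT, at 46.3, 49.0 and 74.3 FPKM in HS_control_FMT and at 11.2, 12.2 and 7.33 FPKM in HS. Every transfer library was at least 46.3 FPKM and no HS library passed 12.2 FPKM, so the groups were far apart, and HS_AOS_FMT 1 was the highest (log2 change 2.68, SE 0.241, adjusted p = 0.00488). Ciart, which encodes a repressor of BMAL1 (chromosome 3, 95878500 to 95882257), was at 18.4, 10.2 and 11.1 FPKM in HS_AOS_FMT, at 7.84, 8.49 and 10.5 FPKM in HS_control_FMT and at 0.97, 1.47 and 1.38 FPKM in HS. Again the lowest transfer library, HS_control_FMT 1, stood well above the highest HS library (log2 change 2.37, SE 0.177, adjusted p = 0.00203).

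Tef, a relative of Dbp (chromosome 15, 81802673 to 81826863), was at 116, 99.9 and 103 FPKM in HS_AOS_FMT, at 68.2, 76.9 and 87.8 FPKM in HS_control_FMT and at 51.7, 53.6 and 43.3 FPKM in HS. Its transfer libraries were all above HS and the HS_AOS_FMT libraries were above the HS_control_FMT libraries (log2 change 0.86, SE 0.0989, adjusted p = 0.00763). The difference between the transfers was 0.46 (adjusted p = 0.056). Usp2, a deubiquitinase under clock control (chromosome 9, 44067021 to 44095627), was at 52.2, 56.0 and 54.1 FPKM in HS_AOS_FMT, at 61, 58.3 and 60.6 FPKM in HS_control_FMT and at 30.5, 38.4 and 33.7 FPKM in HS (log2 change 0.72, SE 0.0733, adjusted p = 0.00488). For Usp2 the HS_control_FMT libraries were the highest, each transfer group was tight, and neither overlapped HS. Of the 12 clock output factors, 4 were called higher and 0 lower, against 0.29% called higher over all genes tested. A positive change was found for 11, with a median log2 change of 0.56 against -0.04 over all genes.

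Within the loop itself, Per3, Per2 and Nr1d2, which encode repressors, were higher. Per3 (chromosome 4, 150997018 to 151044707) was at 7.59, 8.26 and 6.62 FPKM in HS_AOS_FMT, at 5.07, 4.96 and 5.1 FPKM in HS_control_FMT and at 1.6, 2.36 and 1.5 FPKM in HS. Its 3 groups were each narrow and stood in the order HS_AOS_FMT, HS_control_FMT, HS without overlap (log2 change 1.36, SE 0.112, adjusted p = 0.00203). Per2 (chromosome 1, 91415977 to 91459351) was at 8.61, 10.3 and 11.6 FPKM in HS_AOS_FMT, at 17.9, 12.7 and 13.6 FPKM in HS_control_FMT and at 2.39, 5.67 and 4.04 FPKM in HS. Here the HS_control_FMT libraries were highest and HS 2 came nearest to the transfers (log2 change 1.44, SE 0.203, adjusted p = 0.0295). Nr1d2, which encodes REV-ERB beta (chromosome 14, 18204056 to 18239106), was at 34.6, 34.3 and 32.1 FPKM in HS_AOS_FMT, at 23.5, 31.6 and 29.9 FPKM in HS_control_FMT and at 13.6, 14.7 and 13.5 FPKM in HS. The spread within HS was small, no transfer library came near it, and the change was 1.09 (SE 0.091, adjusted p = 0.00203).

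Cry2, a repressor of BMAL1, and Rora, the activator of Arntl, were higher by less. Cry2 was at 5.23, 5.9 and 4.82 FPKM in HS_AOS_FMT, at 3.41, 3.19 and 3.8 FPKM in HS_control_FMT and at 2.78, 2.71 and 2.8 FPKM in HS (log2 change 0.49, adjusted p = 0.0483). Its HS libraries were almost equal, and HS_control_FMT lay just above them: taken separately, the change was 0.74 in HS_AOS_FMT (adjusted p = 0.0182) and 0.24 in HS_control_FMT (adjusted p = 0.224). Rora was at 6.92, 7.94 and 7.21 FPKM in HS_AOS_FMT, at 9.73, 8.79 and 8.53 FPKM in HS_control_FMT and at 5.68, 5.09 and 5 FPKM in HS (log2 change 0.55, adjusted p = 0.0256). Its groups did not overlap, and the HS_control_FMT libraries were highest. Of the 16 genes of the core clock, 5 were called higher and 0 lower, with a median log2 change of 0.13. Over all genes tested, 0.29% were called higher and 0.257% lower, and the median was -0.04.

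Arntl and Npas2, the activating partners, were low in the transfers but did not pass the test. Arntl was at 2.01, 3.4 and 2.06 FPKM in HS_AOS_FMT, at 6.81, 3.76 and 2.8 FPKM in HS_control_FMT and at 8.18, 8.46 and 8.93 FPKM in HS (log2 change -1.17, adjusted p = 0.0542). All 6 transfer libraries lay below all 3 HS libraries, and HS_control_FMT 1 came closest to HS. Npas2 was at 0.95, 1.79 and 1.29 FPKM in HS_AOS_FMT, at 3.3, 1.83 and 0.98 FPKM in HS_control_FMT and at 4.7, 5.05 and 5.3 FPKM in HS (log2 change -1.22, adjusted p = 0.0515). Again all 6 lay below, with HS_control_FMT 1 closest. Without HS_control_FMT 1, Arntl and Npas2 had adjusted p-values of 0.0178 and 0.019.

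Other members did not pass the test. Wee1, a cell cycle kinase under E-box control, averaged 6.07 ± 0.339 FPKM in the transfers and 3.59 ± 0.906 FPKM in HS (log2 change 0.64, adjusted p = 0.0527), and all 6 transfer libraries were above HS. Hlf averaged 36 ± 3.09 FPKM in HS_AOS_FMT, 24.9 ± 1.86 FPKM in HS_control_FMT and 21.2 ± 2.53 FPKM in HS (log2 change 0.48, adjusted p = 0.0524). The transfers differed from each other in Hlf (difference 0.52, SE 0.103, adjusted p = 0.036). Nfil3, the opponent of Dbp, Tef and Hlf at D-boxes, was at 2.45, 3.67 and 4.22 FPKM in HS_AOS_FMT, at 14.1, 15.2 and 7.53 FPKM in HS_control_FMT and at 5.29, 16.1 and 12.2 FPKM in HS. It was low in HS_AOS_FMT and overlapped between HS_control_FMT and HS (log2 change -0.59, adjusted p = 0.364). Per1 averaged 12.3 ± 3.25 FPKM in the transfers and 5.81 ± 2.41 FPKM in HS (log2 change 0.99, adjusted p = 0.076). Nr1d1 averaged 40.1 ± 8.72 FPKM in the transfers and 27.1 ± 6.63 FPKM in HS (log2 change 0.55, adjusted p = 0.181). The libraries of both genes overlapped. Clock averaged 6.66 ± 0.744 FPKM in the transfers and 7.21 ± 0.0907 FPKM in HS (log2 change -0.11, adjusted p = 0.566). Cry1 averaged 1.47 ± 0.521 FPKM in the transfers and 1.46 ± 0.556 FPKM in HS (log2 change 0.01, adjusted p = 0.99).

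The clock calls differed in how far they rested on single libraries. Per2 was not called without HS_AOS_FMT 2, HS_AOS_FMT 3, HS_control_FMT 1 or HS 3 (highest adjusted p = 0.123). Rora was called in 3 of the 9 fits that leave out a library (highest adjusted p = 0.136) and Cry2 in 0 (highest adjusted p = 0.173). Dbp, Ciart, Per3, Nr1d2, Tef and Usp2 were called in all 9. When the fit took its spread from all 18 libraries and 6 groups, 1 core clock gene, Rora, was still called (adjusted p = 0.0277). Of the 12 output factors 0 were called; Dbp then had an adjusted p of 0.128, Ciart 0.13, Per3 0.109 and Nr1d2 0.115.

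Clock genes varied within groups outside this comparison, and several were also higher in HS_AOS than in HS. Dbp was at 166, 44.4 and 40.1 FPKM in the HS_AOS libraries (HS with AOS and no transfer), at 26.0, 36.5 and 11.5 FPKM in the AOS libraries and at 2.76, 6.9 and 90.6 FPKM in the control libraries, which have neither HS nor AOS. In the same order of groups, Arntl was at 0.49, 4.33 and 3.03 FPKM, at 6.75, 4.59 and 8.24 FPKM and at 12.5, 10.1 and 2.71 FPKM. Every HS_AOS library lay above every HS library for Dbp, Ciart, Per3, Nr1d2, Tef, Cry2 and Rora, while Per2 and Usp2 overlapped. Ciart was at 21.7, 4.87 and 5.14 FPKM in HS_AOS and Nr1d2 at 35.3, 26.7 and 29.5 FPKM. A level above HS was thus also seen in a group without a transfer. These genes were chosen against the same HS libraries, so nothing more is read from that. In HS_AOS 1, AOS 2 and control 3, Dbp was the highest and Arntl the lowest of the group. Per3 was at 0.5, 1.54 and 6.17 FPKM in the control libraries, and control 3 alone of these lay inside the range of the transfers (4.96 to 8.26 FPKM).

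Among promoters of the same length, the E-box letters CACGTG, which read the same on both strands, stood in 2349 of 32851 promoters (7.15%) and in 9.82% of the promoters of genes tested. They stood in 9 of 37 promoters (24.3%) of raised genes with an entry, 28 genes in all, and in 2 of 30 promoters (6.67%) of 25 lowered genes. The D-box letters TTATGTAA, on either strand, stood in 0.938% of all promoters and in 0.54% of those of genes tested. They stood in 2 of 37 (5.41%) of those of raised genes and in 0 of 30 of those of lowered genes. Of the called clock genes, 8 had an entry, with 9 promoters: those of Dbp, Rora, Nr1d2, Usp2 and Cry2 held neither set of letters in these 300 bases. Other letters were also searched. Of these, TGACNNNGC (antioxidant element, N any base) stood in 3 of these 9 promoters (33.3%), those of Nr1d2, Usp2 and Cry2. It stood in 14.3% of the promoters of genes tested and in 13.5% of those of raised genes. The shares are a description of these windows.

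Beyond the clock, Cpb2 had the largest shared increase. It encodes a secreted carboxypeptidase that slows the dissolving of blood clots and is made mainly in liver (chromosome 14, 75242287 to 75283555). Cpb2 was at 5.24, 10.2 and 11.6 FPKM in HS_AOS_FMT, at 23.9, 18 and 21.6 FPKM in HS_control_FMT and at 0.97, 0.92 and 2.54 FPKM in HS (log2 change 2.61, SE 0.268, adjusted p = 0.00763). Every transfer library was above every HS library, and the HS_control_FMT libraries were the highest. In groups outside this comparison, Cpb2 ranged widely, from 0.7, 14.7 and 4.38 FPKM in the control libraries to 2.69, 20.0 and 0.87 FPKM in the AOS libraries. The summed level of 17 liver markers ran from 916 to 2040 FPKM in the transfers and from 1240 to 1600 FPKM in HS. Alb was at 3.93 to 20.2 FPKM in the transfers and at 2.5 to 30.2 FPKM in HS. The part of liver RNA in the result was not tested.

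Membrane and signalling genes were among the raised. Tnfrsf21, a receptor with a death domain (chromosome 17, 43016555 to 43089188), was at 57.2, 64.3 and 70.3 FPKM in HS_AOS_FMT, at 69.4, 52.1 and 63.5 FPKM in HS_control_FMT and at 30.8, 25.6 and 34.8 FPKM in HS (log2 change 1.03, SE 0.118, adjusted p = 0.00763). The transfers were close to each other and clear of HS. Kcnk5, a background potassium channel of tubule cells, was at 74.7, 77.8 and 99.8 FPKM in HS_AOS_FMT, at 94.8, 85.8 and 74.3 FPKM in HS_control_FMT and at 41.9, 49.5 and 48.2 FPKM in HS (log2 change 0.84, adjusted p = 0.0186), with changes of 0.83 in HS_AOS_FMT and 0.85 in HS_control_FMT. Sik1, a salt-inducible kinase that restrains cyclic AMP signalling, averaged 18.8 ± 2.52 FPKM in HS_AOS_FMT, 23.2 ± 1.26 FPKM in HS_control_FMT and 11.5 ± 1.73 FPKM in HS (log2 change 0.82, adjusted p = 0.0164). Dusp7, a phosphatase of MAP kinases, averaged 16.1 ± 2.84 FPKM in the transfers and 8.43 ± 0.795 FPKM in HS (log2 change 0.85, adjusted p = 0.0454). Stk35, a kinase, averaged 8.43 ± 0.455 FPKM in the transfers and 5.75 ± 0.476 FPKM in HS (log2 change 0.48, adjusted p = 0.037). Mtss1, an actin and membrane-bending protein, averaged 28.7 ± 1.9 FPKM in HS_AOS_FMT, 38.4 ± 1.57 FPKM in HS_control_FMT and 18.8 ± 1.71 FPKM in HS (log2 change 0.79, adjusted p = 0.00332). The transfers differed from each other in Mtss1 (adjusted p = 0.0383). The names Kcnk5, Sik1, Stk35, Mtss1, Tsku and Gbe1 were chosen after their values were seen.

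Ppara and Foxo3, both transcription factors of metabolism, were also among the raised. Ppara, which encodes the fatty acid-sensing receptor PPAR alpha, was at 19.2, 20.4 and 18.9 FPKM in HS_AOS_FMT, at 24.7, 19.3 and 18.5 FPKM in HS_control_FMT and at 12.8, 9.96 and 12.8 FPKM in HS (log2 change 0.72, SE 0.109, adjusted p = 0.031). It was higher by similar amounts in each transfer, 0.68 in HS_AOS_FMT (adjusted p = 0.0336) and 0.76 in HS_control_FMT (adjusted p = 0.0312). In the HS_AOS libraries, without a transfer, Ppara was at 25.9, 20.5 and 18.1 FPKM. Of 31 genes of fatty acid oxidation and PPARA targets, only Ppara itself was called and the median log2 change was 0.02. Over all genes tested, 0.29% were called higher and the median was -0.04. Foxo3, a transcription factor held back by insulin signalling, was at 11.9, 13.3 and 12.3 FPKM in HS_AOS_FMT, at 16.5, 18.3 and 16.2 FPKM in HS_control_FMT and at 8.48, 9.45 and 10.5 FPKM in HS (log2 change 0.58, adjusted p = 0.0243). HS_control_FMT was highest (difference between the transfers -0.41, adjusted p = 0.0443). Foxo3 was the only gene called of 20 in the list of insulin and FOXO signalling, whose median was 0.08. Coq10b, a coenzyme Q-binding protein of mitochondria, averaged 57 ± 9.64 FPKM in HS_AOS_FMT, 68.6 ± 2.95 FPKM in HS_control_FMT and 33.5 ± 1.84 FPKM in HS (log2 change 0.88, SE 0.0945, adjusted p = 0.00631). Gbe1, the glycogen branching enzyme, averaged 14.1 ± 0.771 FPKM in the transfers and 10.2 ± 0.707 FPKM in HS (log2 change 0.44, adjusted p = 0.0337). Tsku, a secreted leucine-rich protein, averaged 8.67 ± 1.33 FPKM in the transfers and 4.75 ± 0.51 FPKM in HS (log2 change 0.74, adjusted p = 0.0186). Ppara was called in 4 and Foxo3 in 4 of the 9 fits that leave out a library.

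Tsc22d3 encodes GILZ, a protein induced by glucocorticoids, and was at 25.2, 32.4 and 35.3 FPKM in HS_AOS_FMT, at 37.8, 39.4 and 39.0 FPKM in HS_control_FMT and at 13.3, 22.6 and 17.4 FPKM in HS (log2 change 0.95, adjusted p = 0.0419). All 6 transfer libraries were above HS, HS 2 being the highest of its group. In the mean of the transfers it was the only one called of 14 genes in the glucocorticoid and metallothionein list, against 0.29% called higher over all genes tested. The list had a median log2 change of 0.29 (0.03 in HS_AOS_FMT and 0.73 in HS_control_FMT), against -0.04 over all genes (0.01 and -0.08). In HS_control_FMT alone 4 of the 14 were called higher and in HS_AOS_FMT alone 0, against 0.555% and 1.25% of all genes. Between the transfers 2 were called lower in HS_AOS_FMT, against 1.16%. Tsc22d3 was called in 2 of the 9 fits that leave out a library, with adjusted p up to 0.163. Fkbp5, which buffers the glucocorticoid receptor, averaged 28.7 ± 3.71 FPKM in HS_AOS_FMT, 44.7 ± 8.78 FPKM in HS_control_FMT and 22.6 ± 3.66 FPKM in HS (log2 change 0.64, adjusted p = 0.0676). Zbtb16, a transcription factor induced by glucocorticoids, averaged 0.523 ± 0.287 FPKM in HS_AOS_FMT, 3.22 ± 1.33 FPKM in HS_control_FMT and 0.297 ± 0.0493 FPKM in HS (log2 change 0.94, adjusted p = 0.062). Cyp11b1 of the adrenal cortex was at or under 0.06 FPKM in the 3 HS_control_FMT libraries, where these genes were highest. The part of adrenal RNA and of glucocorticoids in these levels was not tested.

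In the endoplasmic reticulum, 2 genes of protein quality control were higher in the mean of the transfers, and both differed between the transfers. Herpud1, part of the machinery that removes misfolded proteins from the endoplasmic reticulum (chromosome 8, 94386429 to 94395371), was at 173, 164 and 188 FPKM in HS_AOS_FMT, at 366, 427 and 362 FPKM in HS_control_FMT and at 116, 162 and 129 FPKM in HS (log2 change 0.94, adjusted p = 0.00763). HS_AOS_FMT stood just above HS and HS_control_FMT far above it: the separate changes were 0.38 in HS_AOS_FMT (adjusted p = 0.124) and 1.51 in HS_control_FMT (adjusted p = 0.00207) (difference -1.13, SE 0.125, adjusted p = 0.00792). Dnajb9, a co-chaperone of BiP, was at 40.8, 36.5 and 41.8 FPKM in HS_AOS_FMT, at 72.4, 77.8 and 67.8 FPKM in HS_control_FMT and at 28.9, 31.9 and 33.0 FPKM in HS (log2 change 0.76, adjusted p = 0.00392). For Dnajb9, too, HS_AOS_FMT stood below HS_control_FMT (difference -0.86, SE 0.084, adjusted p = 0.00628). Of 23 genes in the list, these 2 were called. Edem1, which feeds misfolded glycoproteins to degradation, came next and averaged 21.3 ± 2.22 FPKM in the transfers and 15.9 ± 0.491 FPKM in HS (log2 change 0.39, adjusted p = 0.0515). The median log2 change of the list was -0.16 in HS_AOS_FMT, where 0 were called, and 0.66 in HS_control_FMT, where 8 were called higher. In the comparison of the transfers 17 of the 23 were called lower in HS_AOS_FMT, against 1.16% of all genes tested. Over all genes, 0.29% were called higher in the mean of the transfers and 0.555% in HS_control_FMT alone. Without HS 3, 1 gene of the list was called, as Herpud1 then had an adjusted p of 0.0558.

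Tmem252, Gramd1b and Nat8f3 were also higher and differed between the transfers. These names and Nat8f7 were chosen after their values were seen. Tmem252 was at 97.4, 62.8 and 103 FPKM in HS_AOS_FMT, at 239.6, 202 and 279 FPKM in HS_control_FMT and at 64.4, 73.2 and 55.0 FPKM in HS (log2 change 1.15, adjusted p = 0.0367). Its HS_AOS_FMT libraries overlapped HS, and its HS_control_FMT libraries were above all others (difference -1.47, SE 0.198, adjusted p = 0.0156). Gramd1b, a sterol carrier at membrane contacts, averaged 27.6 ± 4.27 FPKM in HS_AOS_FMT, 51.4 ± 7.87 FPKM in HS_control_FMT and 21 ± 3.47 FPKM in HS (log2 change 0.81, adjusted p = 0.0448). Nat8f3, an N-acetyltransferase, averaged 52.8 ± 15.6 FPKM in the transfers and 29.6 ± 5.86 FPKM in HS (log2 change 0.78, adjusted p = 0.0368). Nat8f7 averaged 70.2 ± 17.7 FPKM in the transfers and 38 ± 5.3 FPKM in HS (log2 change 0.84, adjusted p = 0.0368). They belong to a family of close copies, and reads may have been split between them, so their separate values are uncertain.

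The 31 lowered genes had changes of up to -0.89. The naming rule took 12 of them, for which it required all 6 transfer libraries to be below HS. Calb1, the calcium-binding protein calbindin of the distal convoluted and connecting tubule (chromosome 4, 15881264 to 15906709), was at 105, 97.3 and 85.8 FPKM in HS_AOS_FMT, at 96.0, 98.9 and 79.8 FPKM in HS_control_FMT and at 175, 170.5 and 137 FPKM in HS (log2 change -0.77, SE 0.106, adjusted p = 0.0217). The transfers were nearly equal, and HS 3 was the lowest of the HS libraries. Bcl7c, a subunit of BAF chromatin remodelling complexes (chromosome 7, 127661454 to 127708766), was at 21.6, 20.0 and 20.2 FPKM in HS_AOS_FMT, at 27.1, 25.6 and 22.8 FPKM in HS_control_FMT and at 34.7, 37.6 and 38.0 FPKM in HS. Its groups were narrow and clear of each other (log2 change -0.67, SE 0.0699, adjusted p = 0.00537). Crip1, a small LIM domain protein, was at 20.3, 19.3 and 17.2 FPKM in HS_AOS_FMT, at 20.2, 23.8 and 20.7 FPKM in HS_control_FMT and at 42.3, 30.8 and 36.0 FPKM in HS (log2 change -0.81, adjusted p = 0.0164). Ypel2 was at 2.98, 4.18 and 3.05 FPKM in HS_AOS_FMT, at 4.71, 5.81 and 3.63 FPKM in HS_control_FMT and at 10.1, 7.13 and 7.7 FPKM in HS (log2 change -0.89, adjusted p = 0.0454). That was the largest change among the lowered genes that meet the naming rule, and HS_control_FMT 2 was nearest to HS.

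**Figure D2:**
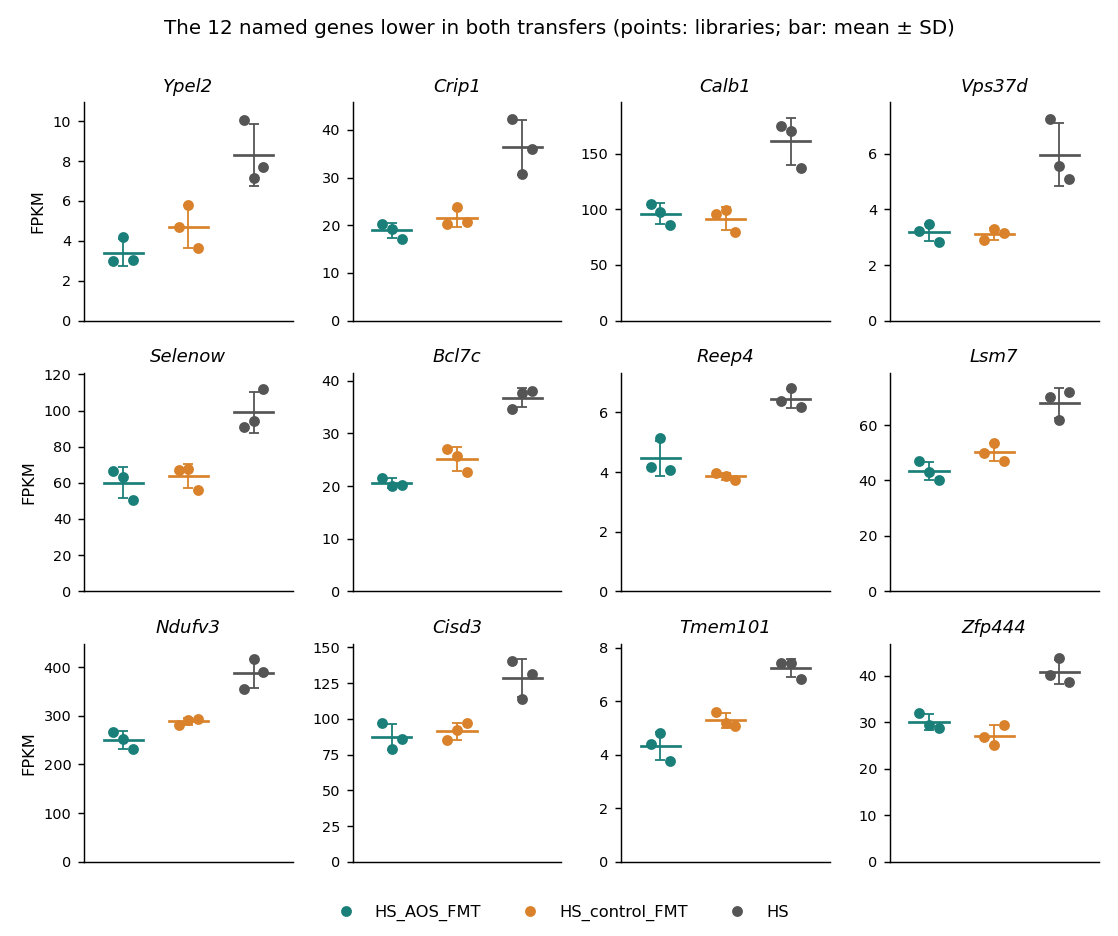
FPKM (y axis, from 0, a scale of its own for each gene) of the 12 named genes that were lower in the transfers, in the 3 HS_AOS_FMT, 3 HS_control_FMT and 3 HS libraries; points are libraries, bars the mean and its SD. The genes were chosen with all 6 transfer libraries below all 3 HS libraries; Calb1, for example, lies at 79.8 to 105 FPKM in the transfers against 137 to 175 FPKM in HS.

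Genes of RNA handling, protein sorting and redox control were also among the lowered. Lsm7, a subunit of the ring that binds U6 RNA and decaying mRNA, averaged 46.8 ± 4.75 FPKM in the transfers and 68 ± 5.38 FPKM in HS (log2 change -0.53, adjusted p = 0.0251). Snrpd2, a core protein of spliceosomal particles, averaged 84.6 ± 8.98 FPKM in the transfers and 109 ± 5.83 FPKM in HS (log2 change -0.37, adjusted p = 0.0454). Elob, elongin B, averaged 427 ± 51.4 FPKM in the transfers and 592 ± 36.8 FPKM in HS (log2 change -0.48, adjusted p = 0.0483). Selenow, a selenoprotein of redox control, averaged 61.9 ± 7.19 FPKM in the transfers and 99 ± 11.3 FPKM in HS (log2 change -0.67, adjusted p = 0.0419). Vps37d, a subunit of the endosomal sorting complex ESCRT-I, averaged 3.15 ± 0.241 FPKM in the transfers and 5.97 ± 1.14 FPKM in HS (log2 change -0.74, adjusted p = 0.0307). Reep4, which shapes the endoplasmic reticulum, averaged 4.16 ± 0.5 FPKM in the transfers and 6.47 ± 0.322 FPKM in HS (log2 change -0.54, adjusted p = 0.0368). Zfp444 averaged 28.6 ± 2.36 FPKM in the transfers and 40.9 ± 2.57 FPKM in HS (log2 change -0.50, adjusted p = 0.0251). Tmem101 averaged 4.81 ± 0.64 FPKM in the transfers and 7.23 ± 0.341 FPKM in HS (log2 change -0.51, adjusted p = 0.042). Psenen, a subunit of gamma-secretase, averaged 157 ± 2.08 FPKM in HS_AOS_FMT, 193 ± 9.11 FPKM in HS_control_FMT and 220 ± 7.57 FPKM in HS (log2 change -0.33, adjusted p = 0.0419). S100a11, a calcium-binding protein, averaged 195 ± 17.3 FPKM in HS_AOS_FMT, 293 ± 21.2 FPKM in HS_control_FMT and 349 ± 44.9 FPKM in HS (log2 change -0.54, adjusted p = 0.0483). Both lay lowest in HS_AOS_FMT. Snrpd2, Elob, Psenen and S100a11 fall outside the naming rule and were picked with their values known.

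The remaining called genes fall outside the naming rule and were named with their values known. Those raised were Nat2, Zkscan7, Tead1, Fnbp1l, Retreg1, Trak2 and Erlin1, with log2 changes of 0.32 to 0.60. Those lowered were Tmem53, Dera, Hcfc1r1, Josd2, Llgl2, Sphk2, Cmtm8, Rangrf, Fam173a, Rps19bp1 and B3gat3, with changes of -0.35 to -0.50. The predicted gene Gm40363, a class that the rule leaves out, had a change of -0.85.

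Among the lowered genes were 4 subunits of the respiratory chain and Cisd3, each with a change of -0.31 to -0.52. Ndufv3, an accessory subunit of complex I, was at 267, 252 and 232 FPKM in HS_AOS_FMT, at 281, 292 and 294 FPKM in HS_control_FMT and at 356, 416 and 389.6 FPKM in HS (log2 change -0.52, adjusted p = 0.0186). Ndufs6, another complex I subunit, averaged 215 ± 10.6 FPKM in HS_AOS_FMT, 277 ± 4.44 FPKM in HS_control_FMT and 302 ± 3.8 FPKM in HS (log2 change -0.31, adjusted p = 0.0483), nearer to HS in HS_control_FMT. Ndufb7 of complex I averaged 306 ± 34.5 FPKM in the transfers and 416 ± 16.6 FPKM in HS (log2 change -0.45, adjusted p = 0.0301). Uqcr11 of complex III averaged 537 ± 84.7 FPKM in the transfers and 720 ± 24.9 FPKM in HS (log2 change -0.44, adjusted p = 0.0483). Cisd3, a mitochondrial iron-sulfur protein, averaged 89.4 ± 7.26 FPKM in the transfers and 129 ± 13.5 FPKM in HS (log2 change -0.52, adjusted p = 0.0454). Ndufb7 and Uqcr11 were picked with their values known, and of these genes only Ndufs6 is in the respiratory chain list. Of 38 nuclear-encoded genes of the respiratory chain, Ndufs6 was called, and 19 had an unadjusted p under 0.05 and were lower. In all 33 had a negative change, and the median log2 change was -0.13. Of 40 cytosolic ribosomal proteins, limma called 0, and 26 were lower with an unadjusted p under 0.05, as were 12.9% of all genes tested. In all 39 had a negative change, with a median of -0.23. Rpl27 of the large ribosomal subunit averaged 258 ± 6.2 FPKM in the transfers and 313 ± 12.4 FPKM in HS (log2 change -0.28, adjusted p = 0.0544).

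Across the genes tested, base composition moved with the groups, and the lowered genes had a higher median GC content. Transcripts of the lowered genes had a median GC content of 54.2% and a median length of 1561 bases, those of the raised genes 50% and 3734 bases, and those of the genes tested 49.8% and 3293 bases. Across genes, the rank correlation of a library's deviation with GC content was -0.104, -0.159 and -0.451 in HS_AOS_FMT, -0.046, -0.0323 and -0.0272 in HS_control_FMT and 0.176, 0.33 and 0.297 in HS. With the GC and length trend removed from each library, 36 genes were called higher and 5 lower, against 35 and 31 without, and 31 of the 66 genes were called. The median of the ribosomal list was then -0.06 and that of the respiratory chain list -0.04. Bcl7c (adjusted p = 0.00472), Calb1 (adjusted p = 0.0138), Ypel2 (adjusted p = 0.0198) and Crip1 (adjusted p = 0.037) were still called, while Zfp444, Ndufv3, Lsm7 and Selenow were not. Zfp444 had a change of -0.49, against -0.50 without the correction, and Ndufv3 -0.45, against -0.52. Lsm7 had -0.35, against -0.53, and Selenow -0.43, against -0.67. The lost calls alone thus do not show how much of a change went with base composition. Of the 31 lowered genes, 16, 2 and 1 were called without HS_AOS_FMT 1, 2 and 3, then 3, 12 and 14 without HS_control_FMT 1, 2 and 3, and 4, 3 and 2 without HS 1, 2 and 3.

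Markers of cell types were few among the called genes. Calb1 was the only one called of 14 markers of the distal convoluted and connecting tubule, against 0.257% called lower over all genes tested. Of the 14, 12 had a negative change, and their median was -0.18 against -0.04 over all genes. At an unadjusted p under 0.05, 4 were lower and 1 was higher, against 12.9% and 7.54% of all genes. In HS_AOS_FMT alone, 1 was called higher and 1 lower. Pvalb, the calcium buffer of the distal convoluted tubule, averaged 105 ± 14.9 FPKM in the transfers and 157 ± 30.7 FPKM in HS (log2 change -0.57, adjusted p = 0.0986). Slc8a1, the sodium-calcium exchanger of the connecting tubule, averaged 5.6 ± 0.943 FPKM in the transfers and 8.84 ± 2.56 FPKM in HS (log2 change -0.56, adjusted p = 0.092). Slc12a3, the thiazide-sensitive cotransporter, averaged 116 ± 13.3 FPKM in the transfers and 134 ± 28.8 FPKM in HS (log2 change -0.19, adjusted p = 0.447). The summed level of the 14 markers ran from 1360 to 1800 FPKM in the transfers and from 1720 to 2130 FPKM in HS. Of the 6 transfer libraries, 4 had a sum below all HS libraries. The part of the cell makeup in the Calb1 result was not tested. Calb1 was not called without HS_AOS_FMT 2, HS_AOS_FMT 3, HS_control_FMT 1, HS 1 or HS 2 (adjusted p up to 0.0817).

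Limma called 0 of the markers in the other cell type lists. Over all genes tested, 12.9% were lower and 7.54% higher at an unadjusted p under 0.05, with a median of -0.04. Erythroid markers had the lowest median, -0.88 over 8 genes tested, with 6 lower at an unadjusted p under 0.05. Their summed level ran from 3050 to 7390 FPKM in the transfers and from 7110 to 15600 FPKM in HS. Hba-a1, an alpha globin, was at 3635, 2985 and 4021 FPKM in HS_AOS_FMT, at 5989.7, 6085 and 2900.5 FPKM in HS_control_FMT and at 6857, 5942 and 12581 FPKM in HS. HS 3 was highest (log2 change -0.97, adjusted p = 0.146), and near-identical globin copies make the value of Hba-a1 itself uncertain. Endothelial markers had a median of -0.28 over 16 genes, 0 of them positive and 5 lower at an unadjusted p under 0.05. Their sums were 129 to 239 FPKM in the transfers and 232 to 319 FPKM in HS. Plvap, of fenestrated endothelium, averaged 47.4 ± 11.4 FPKM in the transfers and 74.6 ± 11.9 FPKM in HS (log2 change -0.67, adjusted p = 0.144). Macrophage markers had a median of -0.38 over 13 genes and proximal tubule markers one of 0.12 over 25 genes, with 2 lower and 6 higher at an unadjusted p under 0.05. Slc3a1, an amino acid transporter subunit of the proximal tubule, averaged 258 ± 11.1 FPKM in the transfers and 212 ± 2.12 FPKM in HS (log2 change 0.28, adjusted p = 0.062).

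**Figure D3:**
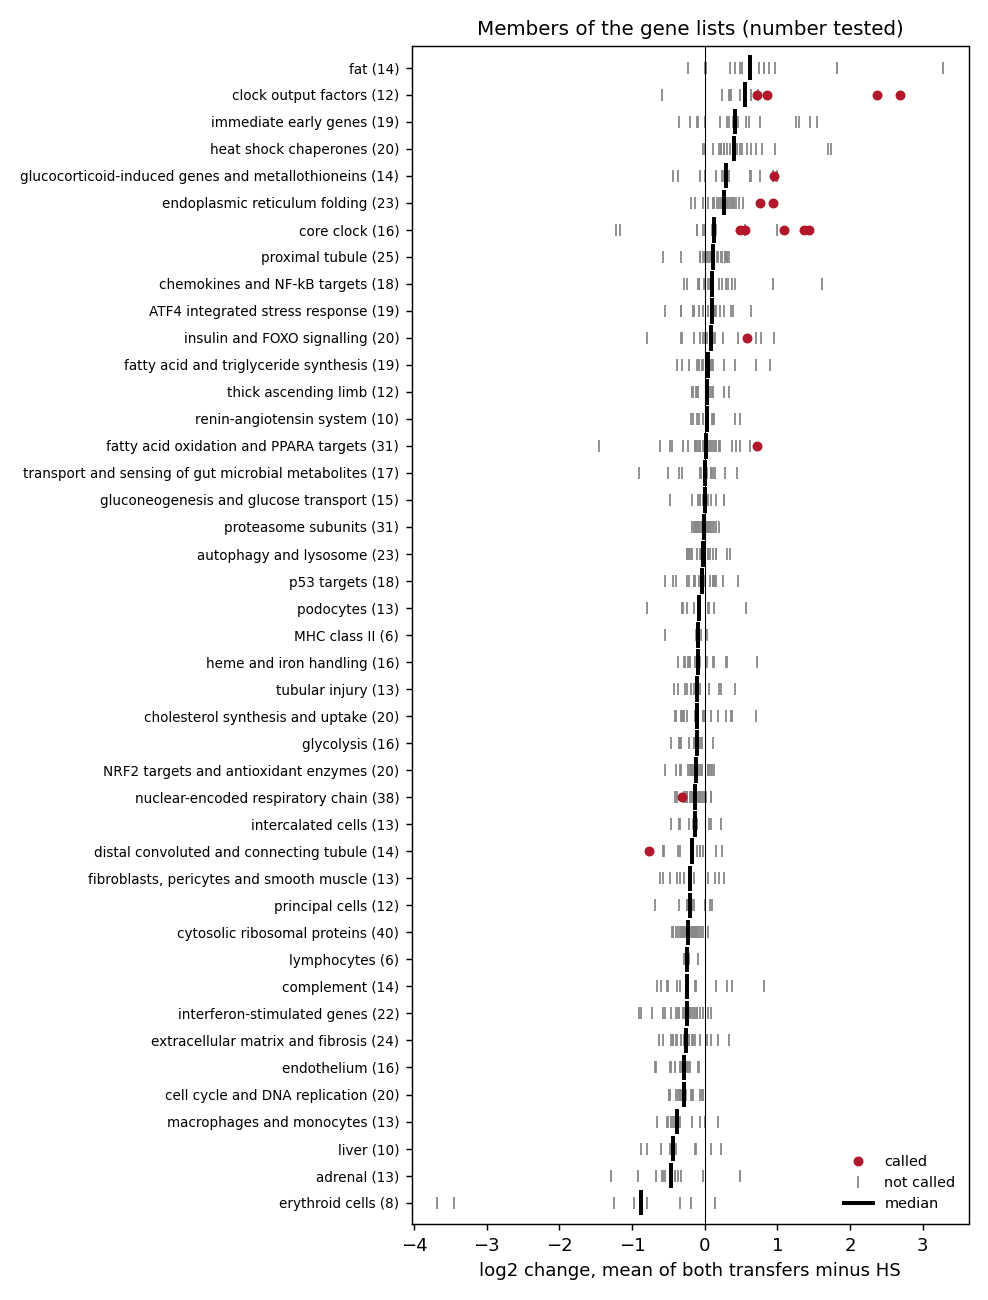
Log2 change (x axis, mean of both transfers minus HS, of FPKM + 1) of each tested member of the gene lists with at least 6 members tested; ticks are genes not called, red points called genes, black bars the list medians, and the number tested is in brackets. Lists run from fat markers (median 0.62) and clock output factors (0.56) at the top to erythroid markers (-0.88) at the bottom, and 9 of the called genes are in the clock lists.

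The list of heat shock chaperones and the genes on opposite sides of HS show where the transfers parted. Of 20 heat shock chaperones, limma called 0 in the mean of the transfers, 6 were higher at an unadjusted p under 0.05, and the median was 0.40, made of 0.00 in HS_AOS_FMT and 0.91 in HS_control_FMT. In HS_AOS_FMT minus HS_control_FMT 5 of the 20 were called, all lower. Over all genes tested, 1.16% were called lower there, and 7.54% were higher at an unadjusted p under 0.05 in the mean. Hspa8, the constitutive heat shock protein, was at 1668, 1585 and 2226 FPKM in HS_AOS_FMT, at 2892, 3139 and 2898 FPKM in HS_control_FMT and at 1090.3, 1799 and 1704 FPKM in HS (log2 change 0.63, adjusted p = 0.1). HS_control_FMT lay above all others, but the difference between the transfers did not pass the test (difference -0.72, SE 0.193, adjusted p = 0.0684). Hmox1, Creld2 and Sdf2l1 were named for their large differences between the transfers. Hmox1, the heme oxygenase, was at 35.3, 30.6 and 34.1 FPKM in HS_AOS_FMT, at 199, 148 and 139 FPKM in HS_control_FMT and at 56.1, 56.6 and 66.6 FPKM in HS. Its groups did not overlap and stood in the order HS_control_FMT, HS, HS_AOS_FMT, so its mean change of 0.29 (adjusted p = 0.199) lay between opposite changes. Hmox1 was the 1 gene called in each transfer with opposite signs, -0.82 in HS_AOS_FMT (adjusted p = 0.0308) and 1.41 in HS_control_FMT (adjusted p = 0.00475). Creld2, a folding factor of the endoplasmic reticulum, averaged 19.4 ± 1.41 FPKM in HS_AOS_FMT, 81.9 ± 9.5 FPKM in HS_control_FMT and 28.1 ± 6.84 FPKM in HS (difference -2.02, SE 0.16, adjusted p = 0.00164). Sdf2l1, a partner of BiP in the endoplasmic reticulum, averaged 4.42 ± 0.881 FPKM in HS_AOS_FMT, 24.4 ± 3.8 FPKM in HS_control_FMT and 9.67 ± 3.67 FPKM in HS (difference -2.23, SE 0.267, adjusted p = 0.0125).

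In the opposite direction, Slc6a19, the neutral amino acid transporter of the proximal tubule, was at 155, 104 and 84.7 FPKM in HS_AOS_FMT, at 44.4, 51.9 and 50.5 FPKM in HS_control_FMT and at 58.0, 65.5 and 56.2 FPKM in HS (difference 1.17, SE 0.188, adjusted p = 0.0233). HS_control_FMT lay just below HS and HS_AOS_FMT above it. Slc35f3 averaged 9.89 ± 1.41 FPKM in HS_AOS_FMT, 3.66 ± 0.824 FPKM in HS_control_FMT and 5.21 ± 0.621 FPKM in HS (difference 1.23, SE 0.149, adjusted p = 0.0104). Jun, an AP-1 factor, averaged 47 ± 9.25 FPKM in HS_AOS_FMT, 19.9 ± 4.37 FPKM in HS_control_FMT and 20.7 ± 6.41 FPKM in HS (difference 1.20, SE 0.253, adjusted p = 0.0437).

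**Figure D4:**
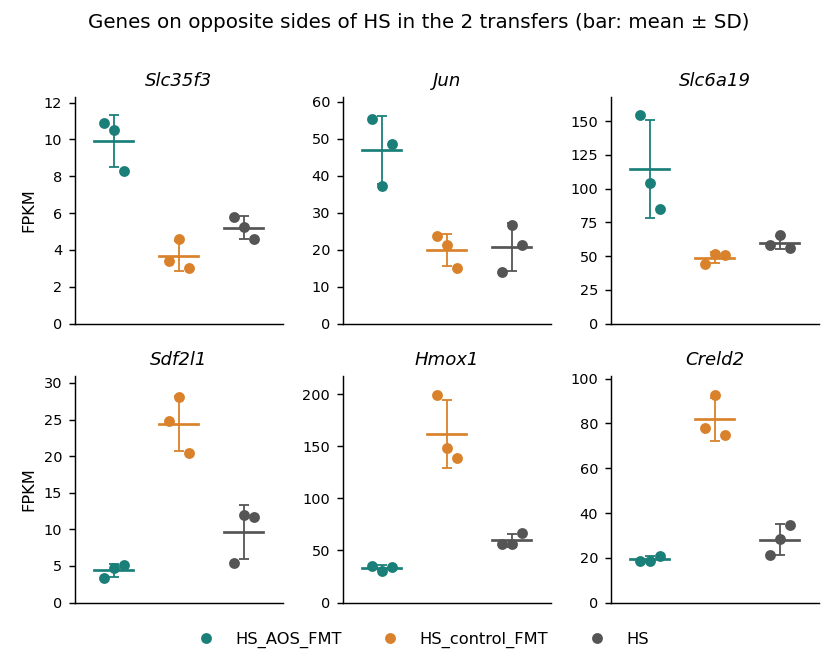
FPKM (y axis, from 0, a scale of its own for each gene) of the 6 genes named because the transfers lay on opposite sides of the HS mean, in the 3 HS_AOS_FMT, 3 HS_control_FMT and 3 HS libraries; points are libraries, bars the mean and its SD. Hmox1 sits at 30.6 to 35.3 FPKM in HS_AOS_FMT, at 139 to 199 FPKM in HS_control_FMT and at 56.1 to 66.6 FPKM in HS.

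The lists of matrix, injury, interferon, MHC class II, complement and cell cycle genes held no called gene in the mean of the transfers by limma. An unadjusted p under 0.05 was reached by 7.54% of all genes tested in the higher direction and by 12.9% in the lower, with a median of -0.04. Of 24 genes of extracellular matrix and fibrosis, 3 were lower at an unadjusted p under 0.05 and the median was -0.26. Mmp14, a membrane-bound matrix protease, averaged 1.84 ± 0.411 FPKM in the transfers and 2.85 ± 0.532 FPKM in HS (log2 change -0.44, adjusted p = 0.149). Of 13 tubular injury genes, 1 was higher at that p, and the median was -0.10. Krt8, an epithelial keratin, averaged 78.9 ± 5.89 FPKM in the transfers and 68.5 ± 2.56 FPKM in HS (log2 change 0.20, adjusted p = 0.134). Of 22 interferon-stimulated genes 3 were lower at that p, with a median of -0.24. Ifi44 averaged 4.46 ± 1.01 FPKM in the transfers and 7.12 ± 2.45 FPKM in HS (log2 change -0.55, adjusted p = 0.184). For 6 MHC class II genes the number was 0 and the median -0.09. H2-Eb1 was at 12.3, 7.31 and 5.27 FPKM in HS_AOS_FMT, at 8.05, 4.77 and 5.68 FPKM in HS_control_FMT and at 23.5, 1.82 and 21.5 FPKM in HS (log2 change -0.55, adjusted p = 0.699), and HS 2 was far below HS 1 and HS 3. Of 14 complement genes, with a median of -0.24, 1 was higher at that p. It was Cfb, complement factor B, which averaged 212 ± 13.6 FPKM in the transfers and 163 ± 9.58 FPKM in HS (log2 change 0.38, adjusted p = 0.0546). Of 20 genes of cell cycle and DNA replication, 6 were lower at that p and 0 had a positive change, with a median of -0.28. Mcm2, a replication helicase subunit, averaged 3.54 ± 0.989 FPKM in the transfers and 5.23 ± 0.864 FPKM in HS (log2 change -0.48, adjusted p = 0.112).

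The lists of glycolysis, cholesterol, fatty acid synthesis, antioxidant enzymes, heme, the ATF4 response and microbial metabolites were also without a call. Gapdh, of glycolysis, averaged 3450 ± 268 FPKM in the transfers and 4400 ± 281 FPKM in HS (log2 change -0.35, adjusted p = 0.0688). Of 16 genes of that list, 4 were lower at an unadjusted p under 0.05, and the median was -0.11. At that p, 1 of 20 genes of cholesterol synthesis and uptake was higher and 2 were lower (median -0.10). Elovl1, a fatty acid elongase, averaged 75.4 ± 4.76 FPKM in the transfers and 99.2 ± 15.9 FPKM in HS (log2 change -0.38, adjusted p = 0.0886). Of 19 genes of fatty acid and triglyceride synthesis, 2 were higher and 1 was lower at that p (median 0.04). Gpx4, which reduces lipid peroxides, averaged 945 ± 89.3 FPKM in the transfers and 1190 ± 89.3 FPKM in HS (log2 change -0.34, adjusted p = 0.0593). Of 20 NRF2 targets and antioxidant enzymes, 4 were lower at that p (median -0.12). Hmox2 averaged 76.3 ± 3.78 FPKM in the transfers and 87.6 ± 2.6 FPKM in HS (log2 change -0.20, adjusted p = 0.129). In its list of heme and iron handling, 2 of 16 genes were higher at that p and 4 were lower (median -0.09). Atf5 averaged 6.38 ± 1.02 FPKM in HS_AOS_FMT, 11.9 ± 1.61 FPKM in HS_control_FMT and 13.3 ± 2.94 FPKM in HS (log2 change -0.54, adjusted p = 0.1). No other of 19 genes of the ATF4 response had an unadjusted p under 0.05, and their median was 0.10. Fmo2, a flavin monooxygenase, averaged 112 ± 17.1 FPKM in the transfers and 81.4 ± 6.75 FPKM in HS (log2 change 0.44, adjusted p = 0.062). In its list of transport and sensing of gut microbial metabolites, 2 of 17 genes were higher at that p and 2 were lower (median 0.01).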

How the data were processed

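Kidney RNA was sequenced in 18 libraries, 9 of which are compared here. Reads were aligned with Bowtie 0.12.2 to mm10, per the submitters' processing notes; the counting program, its annotation and whether it used strand were not given in the sources used here. In the deposited table there is 1 FPKM value per gene symbol and library, made by the authors. The unit was inferred from the values: the library sums varied by 4.293% as deposited and by 0.93% after multiplying by transcript length (coefficient of variation). Depth is unknown. Of 3 repeated symbols, the row with the lower mean level was kept apart.

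From these values, log2(FPKM + 1) was fitted with limma 3.58.1 in R 4.3.3 (trend and robust options, 3 group means, 6 residual degrees of freedom), after a filter of 1 FPKM or more in 3 or more of the 9 libraries. Changes are transfer minus HS, or HS_AOS_FMT minus HS_control_FMT, with Benjamini-Hochberg adjustment over 12071 genes and a threshold of 0.05. The fit was tested on simulated data. The 45 gene lists and the members were chosen with earlier results of these data known, and each list is described by its counts and its median, to be read against those over all genes tested.

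Genes were named by a rule: the 12 raised and 12 lowered called genes with the largest changes whose 6 transfer libraries all lay on 1 side of the HS libraries and whose higher group averaged at least 2 FPKM, predicted genes left out; up to 3 called members per list; the member with the smallest p in a pathway list with no call; and, on each side, the 3 genes with the largest difference between the transfers that lay on opposite sides of HS. A few genes that the rule names are not reported here. Other names were chosen after their values were seen, as were the markers given beside a list. Replicate numbers did not pair the libraries (correlation of same-numbered deviations -0.233 to 0.309). Other settings are given with the closing results. Positions and promoters are from RefSeq (GRCm38.p6).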

Additional observations from a re-analysis of the deposited data

Results flagged for a closer look

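Of 115 single genes followed here, 24 had a difference between the transfers that passed limma's test of HS_AOS_FMT minus HS_control_FMT, with adjusted p over 12071 genes. Over all genes tested, 4.22% passed it. Sdf2l1, Hmox1, Creld2, Slc35f3, Jun and Slc6a19 were named by this same test, and others after their values were seen. Nothing is therefore read from the count. All values here are log2 differences of FPKM + 1. HS_AOS_FMT was lower than HS_control_FMT, with the transfers on opposite sides of the HS mean, for Sdf2l1 (-2.23, adjusted p = 0.0125), Hmox1 (-2.23, adjusted p = 0.000305) and Creld2 (-2.02, adjusted p = 0.00164).

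Both transfers were above HS, and HS_AOS_FMT was by less, for Tmem252 (-1.47, adjusted p = 0.0156), Zbtb16 (-1.44, adjusted p = 0.0192), Herpud1 (-1.13, adjusted p = 0.00792), Gramd1b (-0.88, adjusted p = 0.0297), Dnajb9 (-0.86, adjusted p = 0.00628), Tead1 (-0.73, adjusted p = 0.0104), Nat8f3 (-0.72, adjusted p = 0.036), Foxo3 (-0.41, adjusted p = 0.0443) and Mtss1 (-0.41, adjusted p = 0.0383). Both were below HS, and HS_AOS_FMT was by more, for Atf5 (-0.81, adjusted p = 0.0404), S100a11 (-0.59, adjusted p = 0.032), Josd2 (-0.41, adjusted p = 0.0438), Ndufs6 (-0.36, adjusted p = 0.0247), B3gat3 (-0.34, adjusted p = 0.0359) and Psenen (-0.29, adjusted p = 0.0437).

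HS_AOS_FMT was higher than HS_control_FMT for 6 genes. Of these, Slc35f3 (1.23, adjusted p = 0.0104), Jun (1.20, adjusted p = 0.0437) and Slc6a19 (1.17, adjusted p = 0.0233) had a mean below HS in HS_control_FMT. The clock genes Hlf (0.52, adjusted p = 0.036) and Cry2 (0.50, adjusted p = 0.0373) were above HS in both transfers, as was Zkscan7 (0.48, adjusted p = 0.0424). Of these 24 genes, 15 are among the 66 called in the mean of the transfers, with unequal changes in each. They are Herpud1, Dnajb9, Mtss1, Cry2, Foxo3, Tmem252, Gramd1b, Nat8f3, Tead1, Zkscan7, Ndufs6, Josd2, B3gat3, Psenen and S100a11. Tead1 had a change of 0.08 in HS_AOS_FMT and 0.81 in HS_control_FMT.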

How the results depend on the processing

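The count of called genes for both transfers against HS was 66 and lay between 15 and 72 when 1 library was left out; for HS_AOS_FMT against HS it was 366 and lay between 8 and 569, for HS_control_FMT against HS 111 and between 24 and 72, for HS_AOS_FMT against HS_control_FMT 509 and between 4 and 521, and for genes called in both transfers 27 and between 4 and 20. In the same order of these 5 counts, the values under other settings follow, with those left out that stayed within 1.5 times the first count. Without HS_AOS_FMT 2 and HS 3 they were 0, 0, 10, 3 and 0. Array weights gave 1068, 1242, 1344, 2126 and 316, and no filter gave 27, 43, 41, 157 and 10. A log2 change of at least 1 as well gave 8, 19, 24, 36 and 5. Quantile normalization gave 167 for the first (103 higher, 64 lower), 194 for the third (139 higher, 55 lower), 339 for the fourth (165 higher, 174 lower) and 47 for the fifth. With the GC and length trend removed they were 41 (36 higher, 5 lower), 35 (22 higher, 13 lower), 168 (127 higher, 41 lower), 414 (196 higher, 218 lower) and 14. Without the trend option the first was 36, the second 40 and the fifth 11; with all 18 libraries in the fit these were 15, 128 and 5. The first was 180 with at least 5 FPKM and 13 with the 6 transfer libraries as 1 group. Replicate numbers did not pair the libraries; the replicate block gave 30 for the first, 9 for the second, 281 for the fourth and 7 for the fifth, and together with the GC and length correction 37, 14, 236 (100 higher, 136 lower) and 9. The cause of these shifts was not tested.

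For 115 single genes, 2509 values under up to 22 alternatives held 4 reversals, all of Cry1, which was not called: -0.06 without HS_AOS_FMT 2, -0.07 without HS_control_FMT 1, -0.01 without HS_control_FMT 2 and -0.18 without HS 1, against up to 0.15 without HS 3. Of the rest, 1619 kept their side of the threshold, 826 lost the call and 60 gained it. Depth being unknown, no counting error could be given.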

Other observations

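Immediate early genes, the first to respond to a stimulus of a cell, had a median log2 change of 0.42 over 19 genes tested; limma called 0 in the mean of the transfers, and 5 were higher at an unadjusted p under 0.05. Over all genes tested, 7.54% were higher and 12.9% lower at that p, with a median of -0.04. Dusp1, a phosphatase of MAP kinases, was at 63.2, 35.2 and 41.4 FPKM in HS_AOS_FMT, at 49.3, 46.6 and 37.8 FPKM in HS_control_FMT and at 14.0, 26.0 and 14.8 FPKM in HS (log2 change 1.30, adjusted p = 0.0546). In HS_AOS_FMT alone 4 of the 19 were called higher, and in HS_control_FMT alone 0. Over all genes tested, these shares were 1.25% and 0.555%. Of 18 genes of chemokines and NF-kB targets (median 0.10) 1 was higher at an unadjusted p under 0.05, Cxcl1, a neutrophil attractant, which was at 2.98, 0.57 and 12.7 FPKM in HS_AOS_FMT, at 9.07, 6.11 and 2.59 FPKM in HS_control_FMT and at 0.9, 0.41 and 0.94 FPKM in HS (log2 change 1.61, adjusted p = 0.223).

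Of 15 genes of gluconeogenesis and glucose transport (median 0.01), 0 had an unadjusted p under 0.05, and Slc2a9, the urate transporter, averaged 4.5 ± 1.25 FPKM in the transfers and 3.5 ± 0.396 FPKM in HS (log2 change 0.26, adjusted p = 0.283). In the renin-angiotensin list (median 0.03) 2 of 10 genes had an unadjusted p under 0.05 and were higher. Mme, the peptidase neprilysin, was one of them and averaged 19.1 ± 3.1 FPKM in the transfers and 13.3 ± 1.07 FPKM in HS (log2 change 0.48, adjusted p = 0.106). Of 31 proteasome subunits (median -0.01) 2 were higher at that p and 2 were lower. Psma5 averaged 52 ± 2.9 FPKM in the transfers and 45.4 ± 2.79 FPKM in HS (log2 change 0.19, adjusted p = 0.164). Of 23 genes of autophagy and lysosome (median -0.02) 2 were higher and 3 were lower. Of 18 p53 targets (median -0.04) 1 was lower, Bax, an effector of apoptosis, which averaged 49.1 ± 6.34 FPKM in the transfers and 64.4 ± 2 FPKM in HS (log2 change -0.39, adjusted p = 0.0867).

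Fat markers had the highest median of the lists, 0.62 over 14 genes, with 0 called by limma and 0 at an unadjusted p under 0.05; their sum ran from 283 to 1870 FPKM in the transfers and from 210 to 1920 FPKM in HS, and without 1 library the median lay between -0.29 and 1.44. Adrenal markers had a median of -0.46 over 13 genes (sums 90.1 to 608 FPKM in the transfers, 91.2 to 890 FPKM in HS), liver markers -0.43 over 10, principal cell markers -0.20 over 12, intercalated cell markers -0.14 over 13, podocyte markers -0.08 over 13 and thick ascending limb markers 0.03 over 12. Markers of fibroblasts, pericytes and smooth muscle had a median of -0.20 over 13 genes, lymphocyte markers -0.24 over 6 and neutrophil markers 0.20 over 2. Limma called 0 members in each of these lists. Testis markers had a median of -0.11 over 3 genes, and 9 of the 17 listed were at 0 in all 9 libraries.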
